A study of Mus musculus with 2 samples.

Results

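Fibroblast growth factor (FGF) ligands and receptors were read on 2 microarrays, 1 of EpiSC (epiblast stem cells) and 1 of ELA-EpiSC, as 10 genes: the ligands Fgf2, Fgf4, Fgf5, Fgf8, Fgf15 and Fgf17 and the receptors Fgfr1, Fgfr2, Fgfr3 and Fgfr4. Members were taken as every non-control probe that the array files name for these genes, which gave 19 probes. They are 10 of 25851 genes with a detected probe, out of 34650 gene names on the array. Both groups came from E14Tg2A, an embryonic stem (ES) cell line of mouse strain 129/Ola, grown in serum with LIF, and both received FGF2 at 12 ng/mL and Activin A at 20 ng/mL in a chemically defined medium with N2 and B27. EpiSC were obtained from the ES cells directly, whereas ELA-EpiSC came from Epiblast-Like Aggregates (ELA), which form after serum and LIF are withdrawn. Each array carried total RNA pooled from 3 experiments of 1 cell line, so no difference below has a replicate check and no p-value could be given. The source field of 1 label, that of EpiSC, speaks of an Argonaute immunoprecipitate, whereas its title and molecule field give total RNA, which was followed here.

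FGF ligands act on receptor tyrosine kinases, with heparan sulphate chains of the cell surface as co-receptors. An occupied receptor phosphorylates the adaptor Frs2, which recruits Grb2 and starts the RAS-ERK cascade, and ERK in turn induces inhibitors of the same route. In pluripotent cells Fgf4 is the autocrine ligand that drives ES cells out of the ground state, Fgf5 is the classical mRNA of the primed epiblast, and Fgf8 is a ligand of the primitive streak. FGF2 is supplied with the medium, and the arrays read the cells' own Fgf2 mRNA only. The purpose of the pair, in the study, was to see how near EpiSC derived through aggregates are to EpiSC derived directly.

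Fgf8 was the ligand with the higher level in ELA-EpiSC and Fgf4 the ligand with the lower level, each by more than 2-fold, while Fgf5 and Fgf15 differed little between the arrays. Among the receptors, Fgfr1 and Fgfr3 were higher in ELA-EpiSC and Fgfr2 and Fgfr4 in EpiSC, all by less than 2-fold at the brightest probe. These sizes depend on the processing. With the arrays scaled to spike-in probes, the log2 differences of Fgfr1 (1.03) and Fgfr3 (1.30) were past 1. Those of Fgf4 (-0.73) and Fgfr2 (-0.07) were then below it in size. Fgfr4 was at -1.12 when the background correction used an offset of 0. Single probes of Fgfr1 (-0.07) and Fgfr4 (-0.08) differed little. Fgf2 and Fgf17 were dim on both arrays. Differences are given as normalized log2 intensity, ELA-EpiSC minus EpiSC, at the brightest detected probe of a gene, where detected means well above background in at least 0.5 of its spots. Of the 10 members, 5 had their higher level in ELA-EpiSC and 5 in EpiSC, with a median difference of 0.07 against 0.00 over the 16653 genes whose mean log2 was 7.5 or more.

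The probes are 60-base oligonucleotides of the sense strand, and some of those on which the results turn are shown because most members rest on 1 or 2 of them. Positions are those of the mm9 assembly, as the array files give them; exon and UTR boundaries were not analysed here. For Fgf8 these were a probe near the start of the transcript (chr19:45816855-45816914, minus strand) and a probe further on (chr19:45811668-45811727, minus strand). The Fgf2 probe (chr3:37247934-37295153, plus strand) spans 47220 bases and the shown Fgfr3 probe (chr5:34077856-34078090, plus strand) 235 bases of the genome, so both cross a splice junction. Of the receptor probes, 1 of Fgfr1 (chr8:26684061-26684120) and 1 of Fgfr4 (chr13:55269212-55269271), both on the plus strand, are each other's closest match among the probes of other genes, and capitals mark the letters equal in both.
Fgf8, first probe: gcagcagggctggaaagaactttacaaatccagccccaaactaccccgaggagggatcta
Fgf8, second probe: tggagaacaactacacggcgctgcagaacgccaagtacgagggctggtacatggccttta
Fgf2: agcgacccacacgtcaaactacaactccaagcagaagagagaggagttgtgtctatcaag
Fgfr3: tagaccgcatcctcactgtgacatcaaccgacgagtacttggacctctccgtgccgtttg
Fgfr1: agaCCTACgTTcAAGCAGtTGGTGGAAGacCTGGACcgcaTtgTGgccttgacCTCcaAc
Fgfr4: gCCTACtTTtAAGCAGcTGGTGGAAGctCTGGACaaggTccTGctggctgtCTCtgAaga

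The Fgfr1 and Fgfr4 sequences shared 35 of 58 aligned letters (60.3%) when shifted by 2. Over all 19 member probes, the closest ungapped match to a probe of another gene shared 30 to 42 of 60 letters, and the highest share, 70.0%, belonged to a further Fgfr1 probe. Only probes of this array were searched, so matches to other transcripts were not tested.

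Each array carried 55681 probes for transcripts, of which 65.9% (EpiSC) and 65.0% (ELA-EpiSC) were detected. No spot was saturated (0 on either array). Both were on 1 slide and read in 1 scan. The 308 negative control spots of each array had a median signal of 27.9 and 27.0 intensity units, with a 95th percentile of 32.0 and 31.7. Over 312 probes printed 10 times, the difference between the arrays had an SD of 0.10 over spot pairs, a technical error that leaves out labelling and culture. Epiblast markers were present in both groups, with all 7 of the list detected and none past an absolute difference of 1 at the brightest probe. Their summed level was 274557 intensity units in EpiSC and 225635 in ELA-EpiSC. Of the 7, which include Fgf5, 5 were higher in ELA-EpiSC, and without Dnmt3b (-0.84) the sums were 136749 and 148420. Of these 5, Otx2 (0.00) changed sign under 4 processing alternatives and Fgf5 (0.16) under 2. Pou5f1 (0.19), Nanog (0.32) and Eomes (0.32) kept their sign, although another Nanog probe gave -0.31. Sox2 (-0.27) turned to 0.44 under spike-in scaling. Dnmt3b was past 1 at another probe (-1.11), and at the lowest -1.22 over the processing alternatives. Of 4 fibroblast markers, Col1a1 (3.72) and Twist2 (2.93) were higher in ELA-EpiSC, while Col1a2 (0.08) and Thy1 (0.05) were within the spot SD and turned sign with processed signals. The summed fibroblast level was 3242 and 5581 units, and its part in the values below was not tested.

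An absolute difference of 1 was passed by 1504 of the 16653 genes (9.03%), of which 759 (4.56%) had the higher level in ELA-EpiSC and 745 (4.47%) in EpiSC. Spike-in scaling changed this split to 3437 and 269. Of the 10 members, 8 had a mean log2 of at least 7.5, and 2 of these passed 1, Fgf8 upward and Fgf4 downward in ELA-EpiSC. The median absolute difference was 0.66 over the 10 members and over the 8, beside 0.28 over the 16653 genes. The members were picked with such values known, and nothing is read from the comparison.

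**Figure D1:**
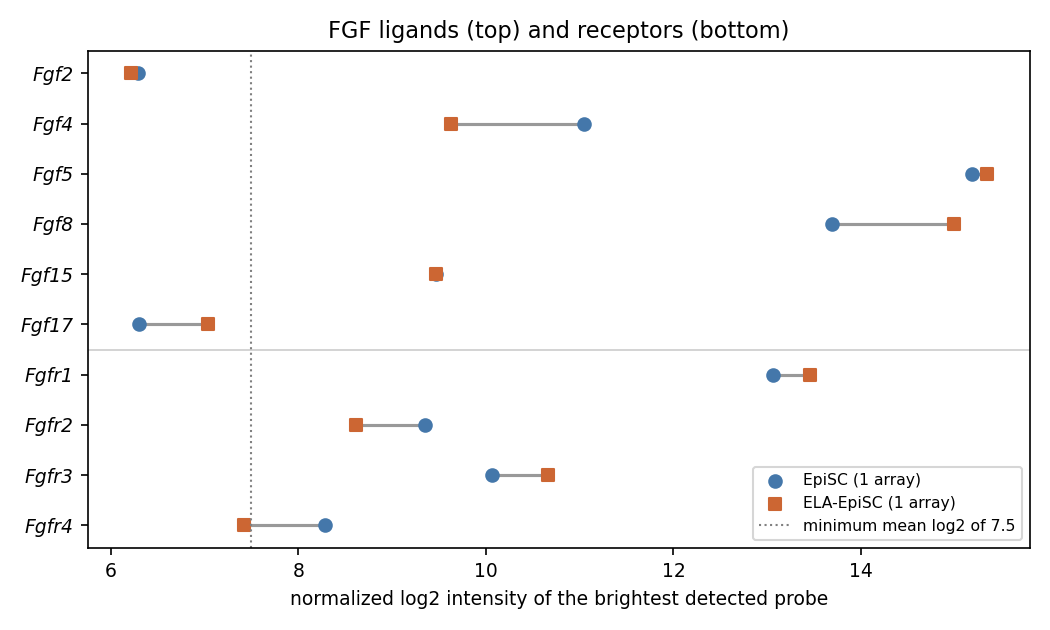
Normalized log2 intensity of the brightest detected probe (x axis) of each gene (y axis) on the EpiSC array (circles) and the ELA-EpiSC array (squares), joined by a line, with 1 array per group and no error bar; levels of different genes come from different probes and cannot be ranked. The pair of points is far apart for Fgf4 (11.04 and 9.63) and Fgf8 (13.69 and 14.99), and nearly coincides for Fgf2, Fgf5 and Fgf15.

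Fgf4 is secreted by cells of the inner cell mass and by ES cells, and its mRNA is characteristic of ground-state pluripotency. Its probe (chr7:152051089-152051148, plus strand) gave a spot signal of 1877 units in EpiSC and 838 in ELA-EpiSC, over a local background of 28.5 and 27.0. On the normalized log2 scale this was 11.04 against 9.63, a difference of -1.41, or 2.66-fold higher in EpiSC. Fgf4 was thus the member with the lower level in ELA-EpiSC by the widest margin, yet still far above background there. An absolute difference larger than this was found in 4.55% of the 16653 genes. It stayed past 1 under 8 of 9 processing alternatives and was -0.73 under spike-in scaling. A single spot per array carries this value, so the SD over 10 spots of other probes is its only yardstick. Among ground-state markers, 4 of 6 were also lower in ELA-EpiSC, with all 6 detected and a summed level of 7037 units in EpiSC and 3281 in ELA-EpiSC. The lower sum came from Tbx3 (-3.76), Nr0b1 (-2.75) and Tfcp2l1 (-1.42). Klf4 (0.16), Esrrb (0.43) and Zfp42 (-0.22, and 0.45 under spike-in scaling) together gave 2216 and 2463 units. The part of these markers in the Fgf4 value was not tested, and in such bulk RNA fewer cells that express a gene and less RNA per cell cannot be told apart.

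Fgf4 shares a stretch of chromosome 7 with Fgf3 and Fgf15. The Fgf15 probe (chr7:152086371-152086430, plus strand) lies 35.3 kb from that of Fgf4. Fgf15, the mouse counterpart of FGF19, is a ligand of the embryonic neural tube and of the gut. Its spot signal was 614 units in EpiSC and 734 in ELA-EpiSC, and after normalization its level was 9.47 in both, with a difference of -0.01. The neighbours thus had unequal differences, that of Fgf15 exceeding that of Fgf4 by 1.41, a gap that ranged from 1.38 to 1.58 over 9 processing alternatives. The Fgf3 probe, at -24.4 kb, was dim, at 6.23 in EpiSC and 5.97 in ELA-EpiSC, and was well above background in EpiSC alone. Its difference of -0.26 ranged from -2.54 to 0.08 over the alternatives, with 0.08 under spike-in scaling. Anterior neural and midbrain-hindbrain markers had a summed level of 14453 units in EpiSC and 1403 in ELA-EpiSC. Of 11 such markers 8 were detected, 7 of them lower in ELA-EpiSC, and En1, Pax5 and Pax6 were detected on neither array. Their part in the Fgf15 level was not tested.

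Fgf8, which patterns the gastrulating embryo, was read by 3 probes. The brightest (chr19:45811355-45811414, minus strand) gave 12200 units in EpiSC and 33143 in ELA-EpiSC. On the normalized scale these were 13.69 and 14.99, a difference of 1.30 or 2.47-fold, and 5.39% of the genes had a larger absolute difference. All 3 probes were higher in ELA-EpiSC, and their mean difference of 0.94 fell short of 1. The second probe shown above gave 2551 and 6560 units, with a difference of 1.08. The first probe shown above, 5500 bases away from the brightest on the genome, gave 75.6 and 128 units, with a difference of 0.45 that became 0.73 when the background correction used an offset of 0. Fgf8 pre-mRNA is spliced in several ways at its 5′ end, and which of the forms each probe reads was not analysed here. Beside Fgf8, primitive streak markers had a summed level of 6222 units in EpiSC and 17728 in ELA-EpiSC, with all 5 detected. T (2.48), Mixl1 (1.97) and Wnt3 (1.42) were higher in ELA-EpiSC. Evx1 (-1.02, and -0.32 under spike-in scaling) and Mesp1 (-1.67) were lower there. Most of the rise in the sum came from T, at 11.19 in EpiSC and 13.67 in ELA-EpiSC. The part of these markers in the Fgf8 value was not tested.

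Fgf17 belongs to the same subfamily as Fgf8 and is likewise made in the streak and the midbrain-hindbrain region. Its probe gave 45.6 units in EpiSC and 106 in ELA-EpiSC, well above background on both arrays. The normalized levels were 6.31 and 7.04, both under the minimum of 7.5. The difference of 0.74 had the direction of Fgf8. It depends on how background is treated: it was 0.49 after scaling to the 75th percentile, 1.49 with an offset of 0 and 2.05 with the processed signal of the scanner software.

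Fgf5 rises in the embryo when the epiblast becomes primed. Its probe (chr5:98705980-98706039, plus strand) gave 37621 units in EpiSC and 41492 in ELA-EpiSC. The normalized levels of 15.19 and 15.34 differed by 0.16, which is 1.54 times the SD of a spot pair, and 69.2% of the genes differed more. Scaling to the 75th percentile turned the sign, to -0.15 after normexp and -0.20 with processed signals. Set against each other within the arrays, the Fgf8 and Fgf4 differences were 2.72 apart, or 6.58-fold, with a range of 2.36 to 2.78 over the alternatives, and those of Fgf5 and Fgf4 were 1.57 apart (1.24 to 1.63). These gaps do not depend on a factor applied to a whole array.

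Fgf2, the ligand supplied in the medium, had 2 probes, of which that crossing the splice junction was detected. It was printed 10 times. The spot signals in EpiSC ran from 39.7 to 51.4 units with a median of 45.1, and 9 of the 10 spots were well above background. In ELA-EpiSC they ran from 37.1 to 48.1 with a median of 43.1, and 6 of 10 were well above background. The groups of spots overlap, and all 20 spots lay above the 95th percentile of the negative controls. The mean normalized levels were 6.29 and 6.22, with a difference of -0.07 and an SD over spot pairs of 0.09, and 7 of the 10 pairs were lower in ELA-EpiSC. The other Fgf2 probe (chr3:37279853-37279912) gave 33.7 and 33.0 units and was detected on neither array. The size of the Fgf2 difference was below the SD of a single spot pair, which is wider than the error of a mean over 10 pairs. The difference was -0.21 with an offset of 0, -0.39 with 75th percentile scaling after normexp and -0.57 with processed signals. Its sign turned, to 0.30, with spike-in scaling alone.

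**Figure D2:**
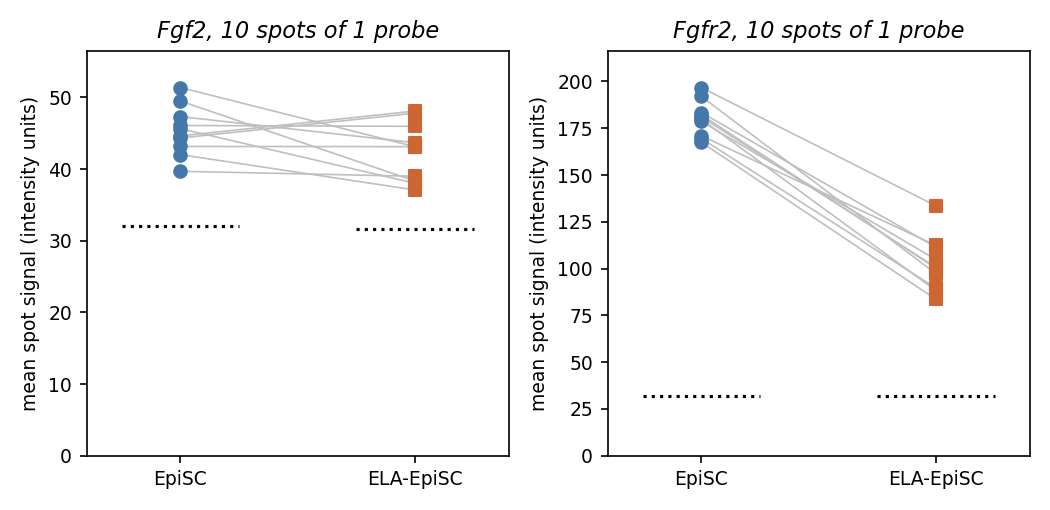
Mean spot signal (y axis, intensity units) of the 10 spots of the Fgf2 probe (left) and of the 10-spot Fgfr2 probe (right) on the EpiSC and ELA-EpiSC arrays; grey lines join spots at the same array position, and dotted lines mark the 95th percentile of negative control spots, 32.0 and 31.7. The Fgf2 spots overlap between the arrays, whereas the Fgfr2 spots do not, from 167 to 197 in EpiSC and from 83.5 to 134 in ELA-EpiSC.

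The receptors differ in which ligands they bind and in where they are made. Fgfr1 is the main FGF receptor of the epiblast, Fgfr2 is prominent in the extraembryonic lineages of the early embryo, Fgfr3 is found in neural progenitors and growing cartilage, and Fgfr4 in endoderm and liver. Fgfr1 and Fgfr3 were higher in ELA-EpiSC and Fgfr2 and Fgfr4 in EpiSC. None passed an absolute difference of 1 at the brightest probe with the processing reported.

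Fgfr1 was read by 3 probes. The brightest (chr8:26685072-26685131, plus strand) gave 7823 units in EpiSC and 12059 in ELA-EpiSC, with normalized levels of 13.07 and 13.45 and a difference of 0.39. The probe shown above gave 794 and 1131 units and a difference of 0.20. The last (chr8:26685820-26685879) gave 822 and 964 units and a difference of -0.07. The probes of Fgfr1 thus did not give 1 direction, and the value became 0.17 when they were averaged.

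Fgfr2 was the receptor read by the most spots. Its brightest probe (chr7:137307473-137307532, minus strand) gave 556 units in EpiSC and 390 in ELA-EpiSC, and normalized levels of 9.35 and 8.61 with a difference of -0.73. A second probe (chr7:137307455-137307514), which overlaps it by 42 bases and so is no independent measure, was printed 10 times. Its spots had a median of 180 units in EpiSC (167 to 197) and 100 in ELA-EpiSC (83.5 to 134), with no overlap between the arrays. All 10 spot pairs were lower in ELA-EpiSC, by differences of -0.98 to -0.64 with a mean of -0.83 and an SD of 0.11. Over these spots the difference was -1.18 with an offset of 0 and -1.39 with processed signals, both past 1. These spots repeat the reading of 1 labelled RNA per group and are no replicates of the cells.

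Fgfr3 was read by 3 probes, of which the brightest (chr5:34079649-34079708, plus strand) gave 927 units in EpiSC and 1762 in ELA-EpiSC. Its normalized levels were 10.07 and 10.66, with a difference of 0.59 or 1.51-fold. The probe shown above gave 82.1 and 118 units and a difference of 0.27. The last (chr5:34074696-34074755) was detected on neither array, at 40.5 and 32.1 units. Both detected probes were higher in ELA-EpiSC.

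Fgfr4 lay just above the minimum, with a mean log2 of 7.85. Its brightest probe (chr13:55270033-55270092, plus strand) gave 254 units in EpiSC and 152 in ELA-EpiSC, with normalized levels of 8.29 and 7.42 and a difference of -0.87 or 1.83-fold. The probe shown above, which resembles that of Fgfr1, gave 74.4 and 76.9 units and a difference of -0.08. Averaging both brought the value to -0.47, and an offset of 0 brought the brightest probe to -1.12, past the size used for counting. Markers of visceral and other endoderm had a summed level of 58674 units in EpiSC and 32168 in ELA-EpiSC, with 7 of 8 lower in ELA-EpiSC and Ttr and Apoa1 not well above background there. Of these 7, Foxa2 (-0.44) and Gata6 (-0.56) turned to 0.08 and 0.10 under spike-in scaling, and the rest kept their sign. Trophoblast markers summed to 2073 and 1467 units, with 2 of 3 lower in ELA-EpiSC. Of these 2, Krt7 (-0.40) turned to 0.31 under spike-in scaling and Elf5 (-1.48) kept its sign. The part of both marker lists in the Fgfr2 and Fgfr4 values was not tested.

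**Figure D3:**
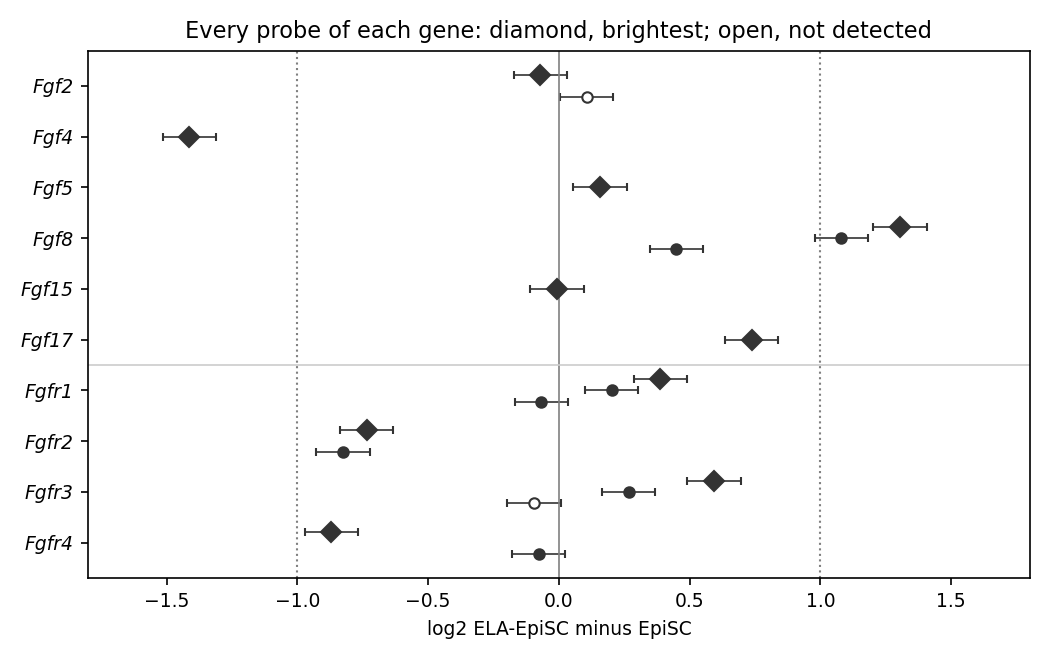
Difference in normalized log2 intensity, ELA-EpiSC minus EpiSC (x axis), of each of the 19 probes by gene (y axis); diamonds are the brightest detected probes, filled circles other detected probes, open circles probes detected on neither array, and bars are 0.10 either way, the SD of a difference over replicate spots. The 3 Fgf8 probes lie above 0 and the 2 Fgfr2 probes below it, while the Fgfr1 probes lie on both sides and the 2 Fgfr4 probes are apart at -0.87 and -0.08.

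Receptors were also compared within the arrays, where a factor applied to a whole array cancels. The difference of Fgfr3 exceeded that of Fgfr2 by 1.33, or 2.51-fold, with a range of 1.21 to 1.43 over the 9 alternatives, and that of Fgfr1 exceeded that of Fgfr2 by 1.12 (0.95 to 1.21). Fgfr1 against Fgfr4 gave a gap of 1.26 (0.65 to 1.52) and Fgfr3 against Fgfr4 one of 1.46 (0.90 to 1.74). The pairs were set by the signs of these same differences, so gaps above 0 were built in and add no support. The 9 alternatives process the same 2 arrays again. At single probes the pairs were not apart, with -0.07 for the last Fgfr1 probe and -0.08 for the Fgfr4 probe shown above. Within the pairs the gaps were smaller, at 0.21 for Fgfr3 against Fgfr1 and 0.14 for Fgfr2 against Fgfr4, and the latter turned to -0.31 when probes were averaged.

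The scale of the arrays bears on every sign. The 8 spike-in probes that were detected all gave less signal with ELA-EpiSC, with a mean difference of -0.40 (-0.57 to -0.29), and setting them equal moved the median of all genes to 0.61. On that scale the differences were 1.84 for Fgf8, 1.30 for Fgfr3, 1.03 for Fgfr1, -0.73 for Fgf4, -0.27 for Fgfr4 and -0.07 for Fgfr2. Relative to the shifted median they were 1.23 for Fgf8, 0.69 for Fgfr3, 0.41 for Fgfr1, -1.35 for Fgf4, -0.89 for Fgfr4 and -0.69 for Fgfr2. The signs of these 6 genes and of Fgf17 were the same under each of the 9 alternatives, while that of Fgf15 changed under 4, of Fgf5 under 2 and of Fgf2 under 1.

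**Figure D4:**
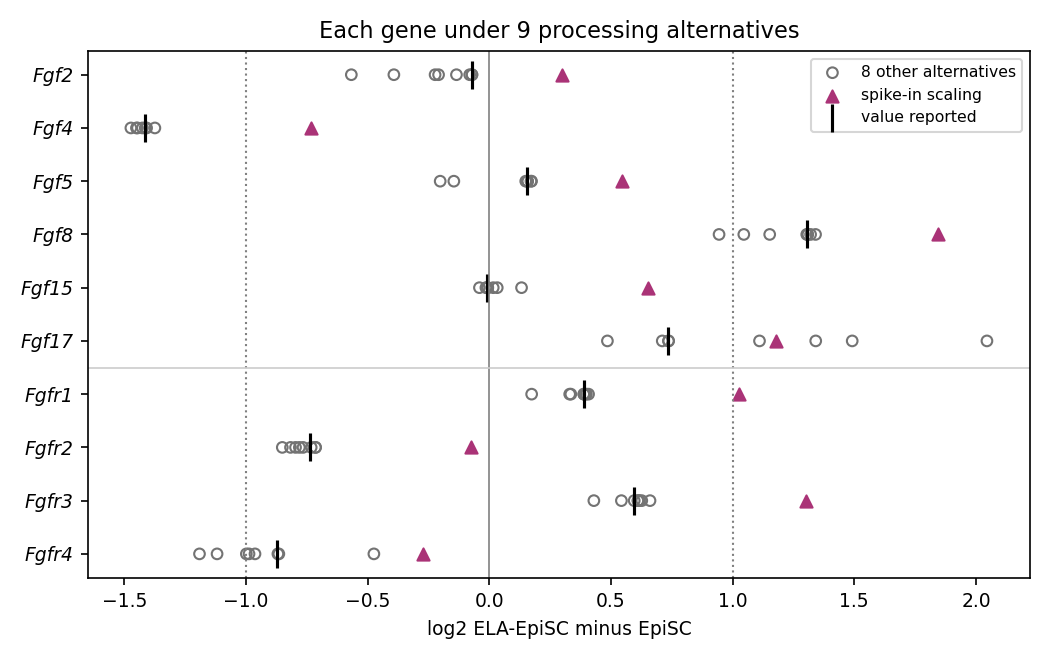
Log2 difference, ELA-EpiSC minus EpiSC (x axis), of each gene (y axis) as reported (vertical tick), under spike-in scaling (triangle) and under 8 other processing alternatives (open circles), with dotted lines at -1 and 1. Spike-in scaling moves every gene to the right, Fgf4 from -1.41 to -0.73 and Fgf8 from 1.30 to 1.84, and Fgf17 spreads from 0.49 to 2.05.

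Beyond the members, 86 other genes of the pathway were listed in 8 groups. Of these 82 were detected and 63 had the minimum level of 7.5. An absolute difference of 1 was passed by 12 of the 63 (19.0%, beside 9.03% of all genes), 8 upward and 4 downward in ELA-EpiSC. The median of the 63 was 0.26. Spike-in scaling changed the split to 24 upward and 1 downward, of 65 genes with the minimum level, and both 75th percentile scalings to 6 upward and 4 downward.

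Among 16 other genes of the FGF family, 15 were detected, 7 higher in ELA-EpiSC and 8 lower, with a median of -0.04. The 7 with the minimum level had a median of 0.40, 4 of them being higher in ELA-EpiSC. Fgf21, an endocrine ligand of metabolic tissues, had a level of 7.70 in EpiSC against 10.13, a difference of 2.43. Fgf18, of the same subfamily as Fgf8 and Fgf17, had 7.64 against 8.98, a difference of 1.34. No other gene of this list with the minimum level passed 1. Below it, with a mean log2 of 7.42, Fgf11 was the gene with the widest margin towards EpiSC, at 8.09 against 6.75 (-1.34). Another detected Fgf11 probe gave a difference of 0.04, and the gene value shrank to as little as -0.65 over the alternatives. Fgf11 was named after its value was seen. Fgfrl1, a receptor without a kinase domain, was at 12.51 and 12.77, a difference of 0.26. The Klotho co-receptors Kl and Klb were dim, with differences of 0.43 and 0.12, that of Klb turning sign after scaling to the 75th percentile.

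On the cell surface, 10 of 12 heparan sulphate proteoglycans and FGF-binding proteins had the minimum level, with a median of -0.03 that turned to 0.65 under spike-in scaling. The glypicans, core proteins anchored to the membrane by a lipid, held the 3 that passed 1, all higher in EpiSC, and of these Gpc3 alone (-1.32) stayed past 1 under spike-in scaling. Gpc3 was at 14.12 in EpiSC and 12.16 in ELA-EpiSC (-1.95), Gpc4 at 12.55 and 11.01 (-1.54, and -0.86 under spike-in scaling) and Gpc2 at 9.17 and 7.94 (-1.23, and -0.60 under spike-in scaling). A second Gpc4 probe gave a difference of -0.51. Of 14 enzymes that make or edit heparan sulphate, 10 had the minimum level, with a median of -0.10 that turned to 0.60 under spike-in scaling. Sulf1, an extracellular sulphatase that removes sulphate groups on which FGF binding depends, stood at the threshold with 12.83 and 13.84, a difference of 1.01 that was no longer past 1, at the lowest 0.90, under both 75th percentile scalings. Of the FLRT membrane proteins, which bind FGF receptors, Flrt3 was higher in EpiSC at 13.13 against 11.66 (-1.48, and -0.80 under spike-in scaling), whereas Flrt2 (0.08) and the dim Flrt1 (-0.01) turned sign under 1 scaling each.

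Inside the cell, 18 of 21 adaptors and members of the RAS-ERK cascade had the minimum level, 13 were higher in ELA-EpiSC, and 0 passed 1. Their median was 0.22. Frs2 was at 11.79 and 11.65 (-0.14, and 0.56 under spike-in scaling) and Grb2 at 13.00 and 13.02 (0.02, with a sign that changed under 3 alternatives). Of the feedback inhibitors that ERK induces, 9 of the 9 with the minimum level were higher in ELA-EpiSC, with a median of 0.79. This count is at the brightest probe, and another detected Spred1 probe gave -0.06. Of all 16653 genes, 50.2% were higher in ELA-EpiSC, and the lists were chosen with earlier results of these data known. Past 1 were Dusp6 (1.49), Dusp4 (1.23) and Il17rd (1.17, at the lowest 0.95 under both 75th percentile scalings). Spry2 (0.79), Spry4 (0.70) and Spry1 (0.41) were below 1. Of 6 transcriptional targets, 5 were higher in ELA-EpiSC, with a median of 0.95 and Egr1 (1.61) and Myc (1.47) past 1. The sixth, the immediate-early gene Fos, was lower in ELA-EpiSC at 11.58 against 10.68 (-0.90, and -0.20 under spike-in scaling). Its sign was the same under each of the 9 alternatives.

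**Figure D5:**
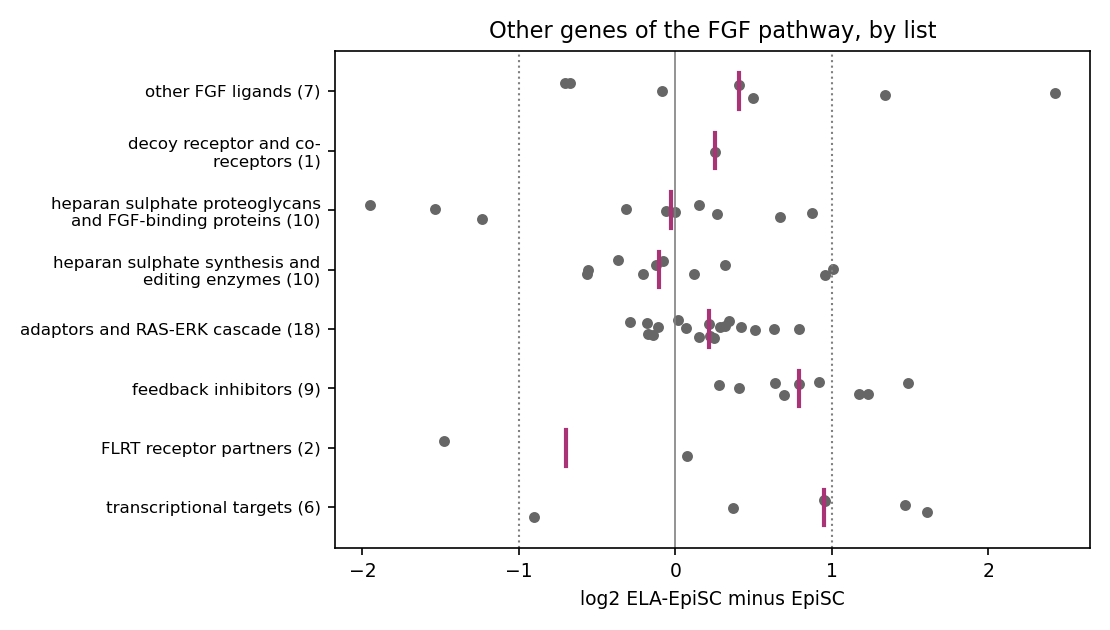
Log2 difference, ELA-EpiSC minus EpiSC (x axis), of the other FGF pathway genes at or above the minimum mean log2 of 7.5, 1 point a gene, by list (y axis, number of genes in brackets; vertical scatter within a list has no meaning), with the median of each list as a vertical bar and dotted lines at -1 and 1. All 9 feedback inhibitors lie to the right of 0, all 18 adaptors and cascade members between -1 and 1, and 3 glypicans left of -1.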

How the data were processed

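Total RNA of EpiSC and ELA-EpiSC was measured on 1 array each. Per the labels, 50 ng of pooled RNA was labelled with Cy3. Groups follow the sample titles, although for EpiSC the source field speaks of an Argonaute immunoprecipitate. Each deposited file gives linear spot intensity before normalization, from the scanner software Feature Extraction 10.7.3.1 per the file headers. A further deposited table has the authors' log2 values, background-corrected and quantile normalized with limma, which served as an alternative.

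The values reported were computed from mean spot signal and the median background around it (limma 3.58.1, R 4.3.3, normexp with offset 50). Control spots and outlier-flagged spots (158 on the EpiSC and 117 on the ELA-EpiSC array) were left out, the arrays quantile normalized, and spots of a probe averaged as log2. Differences of dim genes are compressed by the offset, and quantile normalization hides a shift shared by all genes. A summed marker level adds normalized linear intensities. No p-value is possible with 1 array per group. The sizes of 1 and 2.5 and the minimum of 7.5 follow the study's methods. The script was tested on simulated data.

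The 10 members were named with every probe. Of other lists, all genes were named where at most 5 were detected, and otherwise those past 1, at most 4 per direction, with Fgfrl1, Spry1, Spry2, Spry4, Frs2 and Grb2. Fgf3 was named for its position, and Fgf11, Fos, Spred1 and the marker genes after their values were seen. Members and lists were chosen with earlier results of these data known. 13 alternatives were run. The sequence of 1 probe is not reported here.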

Additional observations from a re-analysis of the deposited data

How the results depend on the processing

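Among 90 member values under 9 processing alternatives, 57 stayed within the spot SD of the reported value and 33 did not, and neither Fgf4 nor Fgf8, the members past 1, changed sign. Of 72 medians of pathway lists, 56 stayed within it. Past 1, all genes numbered 759 upward and 745 downward in ELA-EpiSC; spike-in scaling gave 3437 and 269, and the counts were 66 and 108 at a threshold of 2.5, and 1841 and 1826 at 1.5-fold. The count of members higher in ELA-EpiSC past 1 went from 1 to 3 under spike-in scaling, to 0 with the mean of the detected probes, to 0 at 2.5 and to 2 at 1.5-fold. The count of members higher in EpiSC went from 1 to 0 under spike-in scaling, to 0 at 2.5 and to 3 at 1.5-fold. The median of the members, 0.07, became 0.60 under spike-in scaling, -0.034 with processed signals and -0.093 with 75th percentile scaling after normexp. The cause was not tested, apart from thresholds, which change counts by construction. No paired analysis was possible because 1 array stood for a group, and for the same reason none could be left out. Dim probes limit Fgf2 and Fgf17, whose values depend on the background correction.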
